A study of Mus musculus with 12 samples.

Results

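Cell cycle and proliferation genes were followed in mouse liver as a list of 37 genes chosen by symbol, of 54532 genes in the table. All 37 were found. RNA came from whole livers of 12 male mice, 3 in each of 4 groups. Every mouse carried the floxed allele of Slc25a34, which encodes a mitochondrial carrier protein, and every mouse received an AAV8-TBG virus at 2 months of age, whose thyroxine binding globulin promoter is active in hepatocytes. In hepatocyte knockout (HKO) mice the virus brought Cre recombinase. In control (WT) mice it brought GFP and left the floxed allele intact, so the controls were not mice without virus or loxP sites. After 1 month on chow, the HKO FFD and WT FFD groups ate the fast-food diet (FFD) for 2 months, while the HKO chow and WT chow groups stayed on chow for those 2 months. Food was withheld from all mice for 16 h before collection. The virus reaches over 95% of hepatocytes, per the labels, and the other cells of the liver keep the gene.

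Cells enter division when D-type cyclins with Cdk4 and Cdk6 inactivate the retinoblastoma proteins, which frees E2F transcription factors to switch on the genes of DNA replication. Cyclins E and A with Cdk2 then drive replication, and cyclin B with Cdk1, Aurora kinases and Plk1 drive mitosis, while Cdk inhibitors such as Cdkn1a hold the kinases back. Hepatocytes of adult liver rarely divide, can re-enter the cycle after injury, and are often polyploid, and the repressors E2f7 and E2f8 are known in mouse liver for promoting that polyploidy.

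Total counts per library lay between 12842187 and 24332663. Slc25a34 had 4 to 18 counts in HKO FFD livers against 30 to 92 in WT FFD livers, and 4 to 13 in HKO chow livers against 88 to 116 in WT chow livers. All 8 hepatocyte markers looked at were counted in every group, with a summed level of 59160 to 76864 CPM (counts per 1000000 of the scaled library). Some libraries stood apart. A set of 8 acute phase genes, chosen after the data were seen, summed to 13560 CPM in WT FFD replicate 2 and 15256 CPM in WT chow replicate 3, against 5154 to 8726 CPM in the other 10. The sum of 6 gallbladder and gut markers was 18.3 CPM in HKO chow replicate 2, against 0.577 to 2.31 CPM elsewhere. In bulk liver, fewer cells of a type and less RNA per cell cannot be told apart. Chow and FFD libraries carry separate runs of numbers in the column headers, and that of WT chow replicate 3 stands apart from the other chow libraries. What else differed between those runs cannot be told apart from diet.

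The members past the test in a diet comparison, described further on, were Cdk6, Cdkn2c, E2f1, E2f8 and Rrm2. A RefSeq promoter window of each is printed. Each window runs from 250 bases before to 50 bases after the gene start in RefSeq (build GRCm38.p6), 5′ to 3′ on the gene's own strand. RefSeq starts need not be those of the annotation used for counting. The Cdk6, Cdkn2c and E2f1 windows lie wholly inside the deposited gene, whose 5′ ends are at 3341485, 109667189 and 154569892, in that order. Those windows therefore need not hold the promoter at these ends. The E2f8 and Rrm2 windows span the deposited 5′ end. Capitals mark letters of the words searched on both strands: CCAAT (bound by NF-Y), TTTGAA (the core of the cell cycle homology region) and the E2F words GCGGGAA and TTGGCGC. The windows are chr5:3343643-3343942 on the + strand for Cdk6, chr4:109666707-109667006 on the - strand for Cdkn2c, chr2:154569377-154569676 on the - strand for E2f1, chr7:48881547-48881846 on the - strand for E2f8 and chr12:24708004-24708303 on the + strand for Rrm2.
Cdk6: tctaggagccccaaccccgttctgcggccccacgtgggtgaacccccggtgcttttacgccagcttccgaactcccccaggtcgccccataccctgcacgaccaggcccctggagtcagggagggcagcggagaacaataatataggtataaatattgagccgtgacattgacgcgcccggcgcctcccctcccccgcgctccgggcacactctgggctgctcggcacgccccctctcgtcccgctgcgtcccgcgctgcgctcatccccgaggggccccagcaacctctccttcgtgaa
Cdkn2c: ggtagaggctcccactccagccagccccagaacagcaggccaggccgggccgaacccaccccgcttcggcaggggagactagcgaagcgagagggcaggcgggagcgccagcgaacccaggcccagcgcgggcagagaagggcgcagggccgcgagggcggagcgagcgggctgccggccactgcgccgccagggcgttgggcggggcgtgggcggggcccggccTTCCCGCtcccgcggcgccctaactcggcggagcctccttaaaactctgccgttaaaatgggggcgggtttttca
E2f1: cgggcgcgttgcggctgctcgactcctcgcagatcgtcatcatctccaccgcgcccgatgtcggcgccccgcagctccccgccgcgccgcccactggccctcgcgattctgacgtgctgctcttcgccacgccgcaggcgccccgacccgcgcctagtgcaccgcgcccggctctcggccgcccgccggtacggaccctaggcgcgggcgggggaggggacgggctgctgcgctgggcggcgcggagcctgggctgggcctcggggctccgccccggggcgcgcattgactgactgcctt
E2f8: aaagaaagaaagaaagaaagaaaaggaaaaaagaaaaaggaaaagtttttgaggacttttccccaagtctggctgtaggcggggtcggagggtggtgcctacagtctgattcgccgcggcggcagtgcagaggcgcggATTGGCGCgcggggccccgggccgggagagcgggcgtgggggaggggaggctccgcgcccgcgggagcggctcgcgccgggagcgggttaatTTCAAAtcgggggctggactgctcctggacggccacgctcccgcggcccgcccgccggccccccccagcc
Rrm2: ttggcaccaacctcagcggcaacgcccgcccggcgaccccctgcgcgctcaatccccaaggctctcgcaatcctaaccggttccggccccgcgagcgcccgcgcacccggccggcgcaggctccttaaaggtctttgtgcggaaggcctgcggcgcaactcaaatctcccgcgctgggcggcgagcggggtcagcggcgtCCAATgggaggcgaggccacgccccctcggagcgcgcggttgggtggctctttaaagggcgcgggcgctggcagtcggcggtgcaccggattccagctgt

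The E2f8 window holds 3 of the searched words. TTGGCGC starts 111 bases before the start and overlaps a CCAAT word of the other strand, and TTTGAA lies on the other strand 20 bases before the start. Rrm2 has CCAAT 50 bases before the start, and Cdkn2c has GCGGGAA on the other strand 25 bases before it. RefSeq gives Cdkn2c 2 windows, and CCAAT is in the one not printed. The Cdk6 and E2f1 windows hold none of these exact letters. Both windows lie inside the deposited gene, so this cannot tell whether the sequence at the deposited 5′ end holds them.

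In all, 30 of the 37 members have a promoter window in the table used, and a gene counted as holding a word if any of its windows did. CCAAT was in 23 of the 30 (76.7%) against 41.1% of all 27025 genes with a window. The share with either E2F word was 43.3% of members and 7.79% of all genes. Of this, TTGGCGC was in 33.3% of members and 2.85% of all genes, and GCGGGAA was in 20% of members and 5.29% of all genes. TTTGAA was in 33.3% of members and 20.2% of all genes, and it sat mostly in mitosis genes, where 7 of 10 windows had it. A match is a run of letters and not a measured binding site, and some windows lie inside the deposited gene.

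Most members were detectable but low. By the mean over the 12 libraries, 27 of 37 were above 1 CPM and 10 were above 10 CPM. In every library, 21 members exceeded 1 CPM. In some libraries but not all, 9 did, namely Ccne1, E2f2, E2f7, Mcm5, Mki67, Top2a, Ccnb2, Cdk1 and Birc5. In no library did Ccna2, Ccnb1, Plk1, Aurkb, Bub1, Cdc20 or Foxm1 exceed it. The members nearest the line were E2f2 with a mean of 1.06 CPM just above it and Top2a with a mean of 0.97 CPM just below it. The filter on low counts kept 32 members for testing and left out Ccnb1, Plk1, Aurkb, Bub1 and Cdc20.

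**Figure D1:**
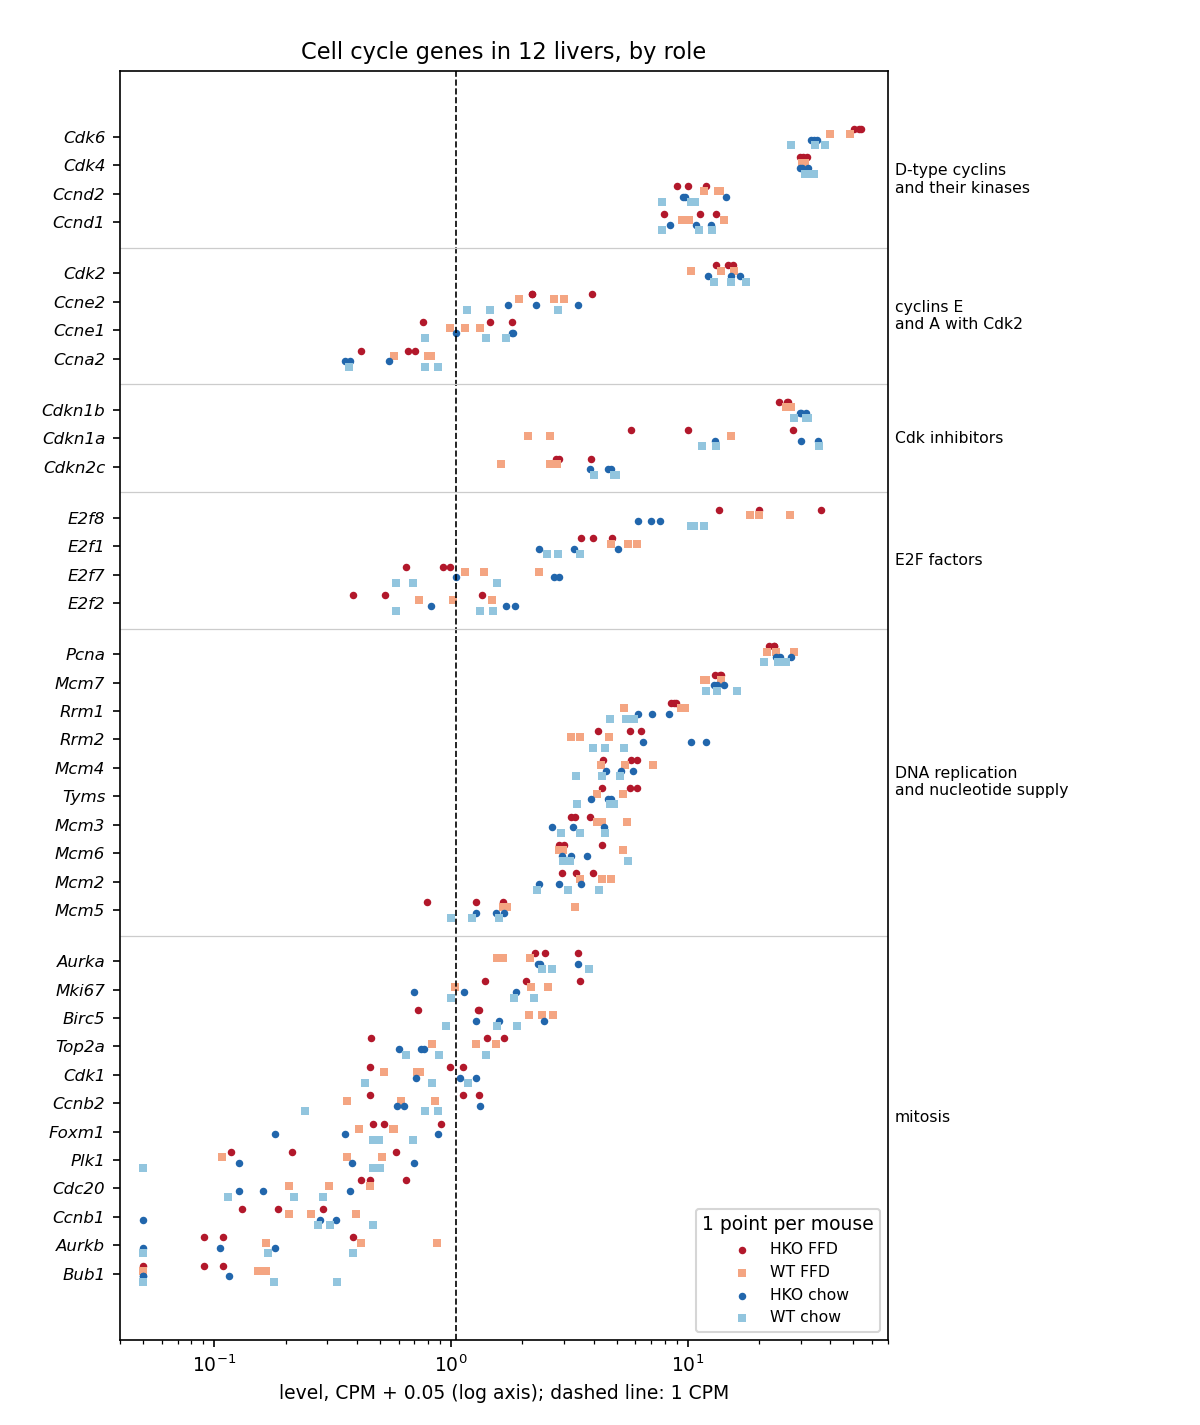
Level of each of the 37 members in each of the 12 livers, as CPM + 0.05 on a log axis, with 1 point per mouse and members grouped by role. The D-type cyclins with their kinases and all replication genes but Mcm5 sit to the right of the 1 CPM line in every liver, most mitosis genes sit on it or to its left, and Cdkn1a spreads from 2.07 to 35.9 CPM.

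To compare genes with each other, levels were set per gene length (TPM, computed from the counts and the deposited gene lengths). Where compared, that length was all annotated exon bases of the gene, such as 5443 for E2f8, and not the length of 1 transcript. The order and the sums therefore depend on the annotation. Rrm1, at 11012 bases, had 7.3 CPM and 1.7 TPM, while Rrm2, at 2771 bases, had 5.8 CPM and 5.33 TPM. On that scale the 10 genes of DNA replication and nucleotide supply summed to a mean of 52.4 TPM, the 4 genes of D-type cyclins and their kinases to 40.9 TPM and the 3 Cdk inhibitors to 31.3 TPM. The 4 E2F factors summed to 11.6 TPM, cyclins E and A with Cdk2 to 9.23 TPM and the 12 mitosis genes to 7.34 TPM. The highest single members were Pcna, the sliding clamp of the replication fork, at a mean of 25.4 TPM, Cdk4 at 24.5 TPM, the inhibitor Cdkn1b at 15.9 TPM and Cdkn1a at 12 TPM. The lowest was Bub1, a kinase of the spindle checkpoint, at 0.0388 TPM, with 14 counts over all 12 libraries and 0 in 5 of them. A count of 0 would allow up to 0.122 to 0.231 CPM over the depths of all 12 libraries, whether or not they were at 0. That limit is set by counting error alone. The order between neighbours is loose: Pcna ranged from 22.3 to 29.9 TPM and Cdk4 from 22.2 to 26.5 TPM over the livers. Cdk4 shares 641 of its 3249 exon bases with Tspan31 on the other strand, which had 171 to 301 CPM. The strand setting of the counting is not given, and the part of Tspan31 reads in the Cdk4 level was not tested.

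Mki67, the usual marker of cycling cells, was low in every liver. It had 2.02, 3.45 and 1.34 CPM in HKO FFD replicates 1 to 3, 2.13, 0.993 and 2.51 CPM in WT FFD, 1.08, 1.83 and 0.65 CPM in HKO chow and 0.95, 2.18 and 1.8 CPM in WT chow, and values of 3 mice are given in this order of replicates from here on. The highest was HKO FFD replicate 2, the lowest HKO chow replicate 3, and all 4 groups overlapped. Its log2 fold change was 0.26 ± 0.46 (SE) for HKO against WT on FFD and -0.45 ± 0.5 on chow, neither past the test by edgeR (adjusted p = 0.91 and 0.79). For FFD against chow it was 0.90 ± 0.49 in HKO and 0.19 ± 0.47 in WT (adjusted p = 0.26 and 0.84). Between 10 and 58 reads per library stood behind these values, and the sign of the HKO against WT difference on FFD turned to -0.18 without HKO FFD replicate 2 and to -0.05 without WT FFD replicate 2. The sign of the FFD against chow difference in WT turned to -0.08 without WT chow replicate 1 and, likewise, to -0.08 without WT FFD replicate 3.

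The list as a whole did not set the groups apart. The mean over the 32 tested members of log2 CPM, centred per gene, was -0.09, 0.10 and 0.04 in HKO FFD, 0.08, -0.15 and 0.16 in WT FFD, -0.08, 0.13 and 0.04 in HKO chow and -0.14, -0.03 and -0.05 in WT chow. These values overlap between HKO and WT on each diet and between the diets in each genotype. Opposite changes can cancel in this mean, which pools genes that drive the cycle with inhibitors. In WT livers the mean of the Cdk inhibitors alone was -0.96, -0.29 and -0.88 on FFD against 0.26, 0.10 and 0.68 on chow. That of the D-type cyclins and their kinases was 0.10, -0.01 and 0.26 on FFD against -0.25, -0.06 and -0.05 on chow. In HKO livers the diets overlapped for both. WT FFD replicate 3 held the highest value of 6 members and the lowest of 0, and WT chow replicate 1 held the lowest of 6.

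The first comparison asked what loss of Slc25a34 in hepatocytes does to these genes on each diet. On FFD, 0 of 32 tested members passed an adjusted p of 0.05 in edgeR for HKO against WT, where 0.007% of the 14277 genes tested did (0.007% lower, 0% higher). At an unadjusted p under 0.05, 3 members passed, against 9.34% of all genes, and DESeq2 called 0. The groups did not overlap for 2 members that were higher in HKO (Cdk6 and Aurka), where 8.08% of all genes were, and 4 that were lower (E2f7, Mcm3, Mcm5 and Birc5), where 8.37% were, which makes 16.4% of all genes in both directions. The median log2 fold change of the tested members was 0.04, against 0 for all genes.

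Birc5, the survivin subunit of the chromosomal passenger complex, came nearest. It had 0.673, 1.25 and 1.26 CPM in HKO FFD livers against 2.65, 2.09 and 2.36 CPM in WT FFD livers, so each HKO value was below each WT value. Its log2 fold change was -1.13 ± 0.34 (adjusted p = 0.29). Mcm5, a subunit of the replicative helicase, had 0.741, 1.6 and 1.22 CPM in HKO FFD livers against 1.61, 1.67 and 3.28 CPM in WT FFD livers, a log2 fold change of -0.87 ± 0.36 (adjusted p = 0.46). The values of HKO replicate 2 and WT replicate 1 nearly meet, and the highest is WT FFD replicate 3. Without that library the log2 fold change was -0.45. Aurka, a kinase of the spindle poles, had 2.22, 2.44 and 3.38 CPM in HKO FFD livers against 1.61, 1.52 and 2.1 CPM in WT FFD livers, a log2 fold change of 0.63 ± 0.27 (adjusted p = 0.49). A list of 10 lymphocyte markers, with Ptprc the most abundant, was likewise lower, at a summed 16.8 to 23.3 CPM in HKO FFD livers against 23.6 to 31.3 CPM in WT FFD livers, with 0 of 9 tested past the threshold and none of the 10 at 0 throughout either group. The sum of 4 plasma cell markers was 5.49 to 8.55 CPM in HKO FFD livers against 12.5 to 22.2 CPM in WT FFD livers, and that of 10 Kupffer cell and macrophage markers was 499 to 541 CPM in HKO FFD livers against 576 to 640 CPM in WT FFD livers, with 0 past the threshold in either list. The part of these cells in the Birc5 and Mcm5 values was not tested.

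On chow, 0 of 32 members passed in edgeR for HKO against WT, where 0.021% of all tested genes did (0.021% lower, 0% higher), and DESeq2 called 1, Rrm2. At an unadjusted p under 0.05, 3 members passed, against 11.8% of all genes. The groups did not overlap for Rrm1 and Rrm2, higher in HKO, where 6.86% of all genes were, and for E2f8, lower in HKO, where 7.39% were, together 14.2% of all genes. The median log2 fold change of the members was 0.03, against 0 for all genes.

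Rrm2, the regulated small subunit of ribonucleotide reductase that makes deoxynucleotides for DNA synthesis, had the smallest p of the members. It had 11.9, 6.42 and 10.3 CPM in HKO chow livers against 3.92, 5.31 and 4.43 CPM in WT chow livers, all 3 HKO values above all 3 WT values. The log2 fold change was 1.06 ± 0.25 (2.08-fold) and did not pass in edgeR with the filter on low counts (adjusted p = 0.18), but did pass with no filter (0.0025), in DESeq2 (0.013) and without HKO chow replicate 2 (log2 fold change 1.28, 0.015), the library with gallbladder and gut markers. In each of these settings many more of all genes passed too, such as 313 without HKO chow replicate 2 against 3 in the main fit. Rrm1, the partner subunit of Rrm2, had a log2 fold change of 0.42 ± 0.21 (adjusted p = 0.47). E2f7, a repressor that lacks the activation domain of E2F1, had 1, 2.82 and 2.67 CPM in HKO chow livers against 0.534, 1.51 and 0.642 CPM in WT chow livers, a log2 fold change of 1.27 ± 0.48 (adjusted p = 0.33), with WT replicate 2 above HKO replicate 1. Its close relative E2f8 went the other way, with 6.93, 7.58 and 6.11 CPM in HKO chow livers against 10.6, 11.7 and 10.3 CPM in WT chow livers, a log2 fold change of -0.66 ± 0.3 (adjusted p = 0.42). E2f8 shares 610 exon bases with Gm2788 on the other strand, and the strand setting of the counting is not given. In the same comparison Gm2788 had a log2 fold change of -0.61 ± 0.21 (adjusted p = 0.28).

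**Figure D2:**
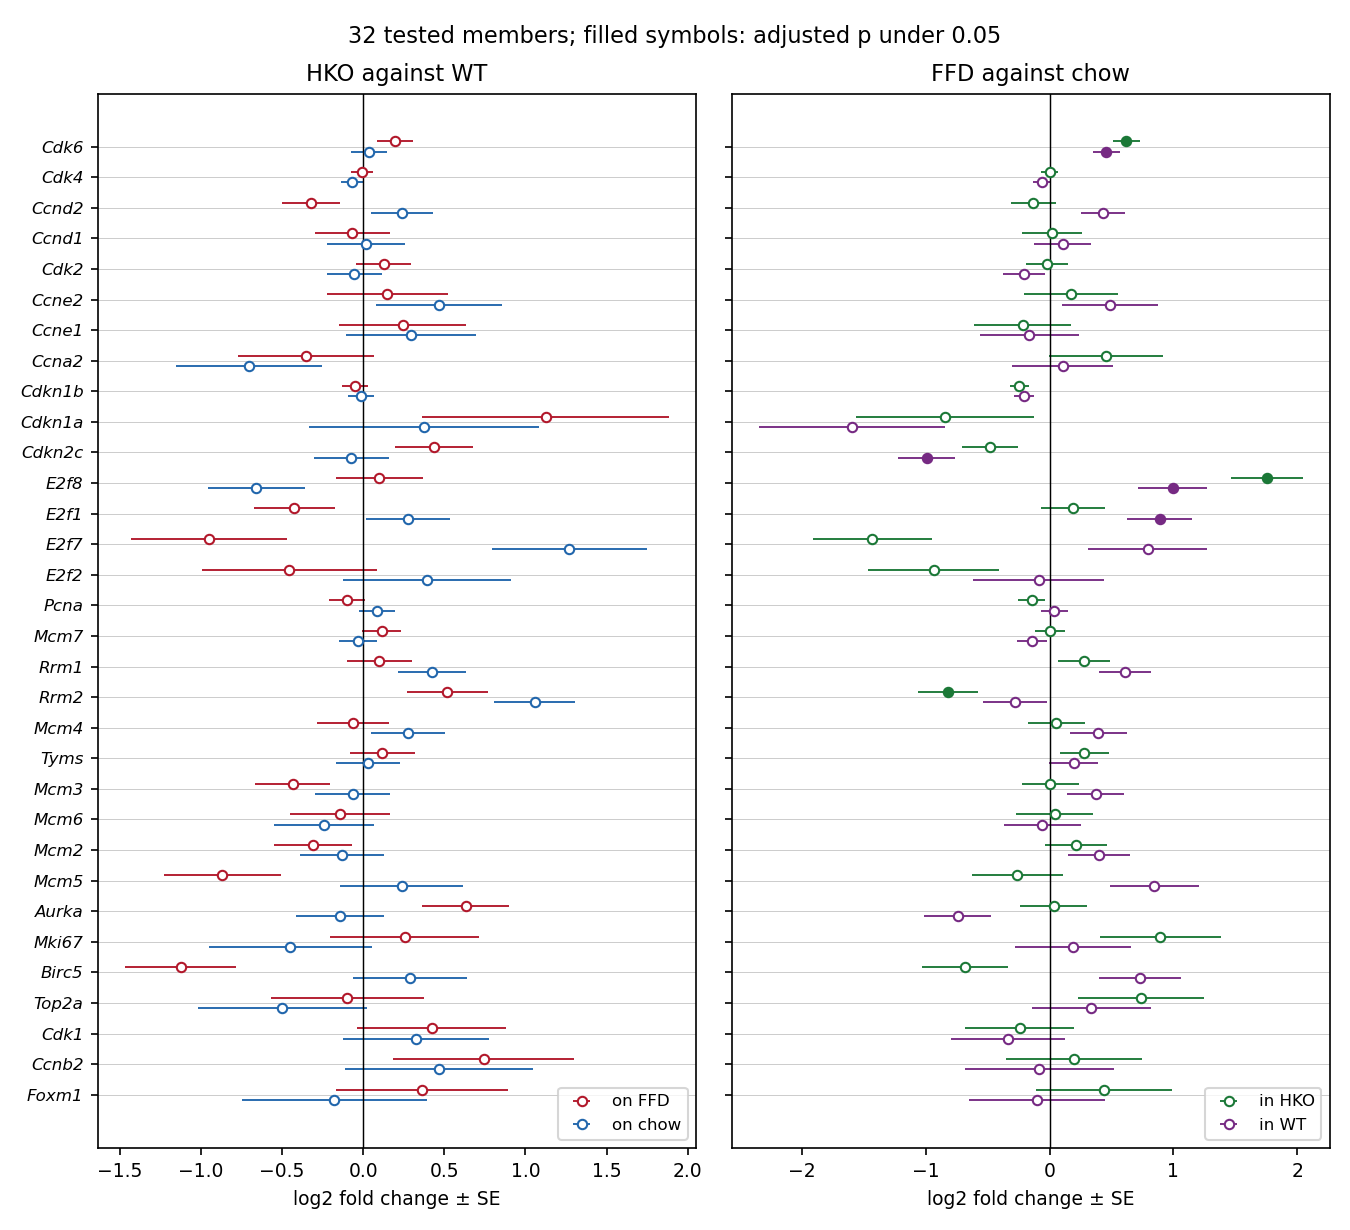
Log2 fold change ± SE of the 32 tested members for HKO against WT on each diet (left) and for FFD against chow in each genotype (right), filled where the adjusted p was under 0.05. No symbol is filled on the left; on the right Cdk6 and E2f8 are filled in both genotypes, Rrm2 in HKO, and E2f1 and Cdkn2c in WT.

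The second comparison asked what FFD does within each genotype. In HKO livers, 3 of 32 tested members (9.38%) passed for FFD against chow, against a background of 13.6% of all tested genes. Cdk6 and E2f8 rose, against 7.46% of all genes, and Rrm2 fell, against 6.12%. At an unadjusted p under 0.05, 5 members passed, against 28.3% of all genes. In WT livers, 4 of 32 (12.5%) passed, against 14.9% of all tested genes: Cdk6, E2f8 and E2f1 rose, against 8.24% of all genes, and Cdkn2c fell, against 6.61%. There, 10 members passed at an unadjusted p under 0.05, against 29% of all genes. The shares of members called are thus near the background or below it in both genotypes. The median log2 fold change of the members was 0.01 in HKO and 0.11 in WT, against -0.01 for all genes in each.

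The groups did not overlap for 3 members higher on FFD in HKO livers (Cdk6, E2f8 and Rrm1), where 17% of all genes were, and for 4 lower (Cdkn1b, E2f7, Pcna and Rrm2), where 16.5% were, in all 33.6% of genes. In WT livers they did not overlap for 6 higher (Ccnd2, Cdk6, E2f1, E2f8, Mcm5 and Birc5), where 16.7% of all genes were, and 3 lower (Cdkn1b, Cdkn2c and Aurka), where 15.9% were, in all 32.6%.

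Some markers of other liver cells moved with diet as well. Of all tested genes, 13.6% passed in HKO and 14.9% in WT, and several marker lists were near those shares. Of 8 endothelial and 9 stellate and fibroblast markers, 0 passed in either genotype, and 1 of 6 tested erythroid markers was higher in each. In WT livers the lymphocyte markers summed to 23.6 to 31.3 CPM on FFD against 16 to 17.6 CPM on chow, with 2 of 9 tested past the threshold, both higher. Of the 10 Kupffer cell and macrophage markers, 3 were higher, at a summed 576 to 640 CPM on FFD against 329 to 515 CPM on chow, and of 6 recruited macrophage markers 2 were higher, at 78.2 to 125 CPM on FFD against 59 to 105 CPM on chow. The 8 hepatocyte markers summed to 59160 to 62167 CPM in WT FFD livers against 67927 to 76864 CPM in WT chow livers, with 1 of 8 past the threshold, lower. In HKO livers the lymphocyte markers summed to 16.8 to 23.3 CPM on FFD against 14.7 to 18.3 CPM on chow with 0 past the threshold, and the Kupffer cell and macrophage markers to 499 to 541 CPM on FFD against 418 to 451 CPM on chow with 1 higher. The hepatocyte markers there summed to 60517 to 64849 CPM on FFD against 64849 to 69245 CPM on chow, with 0 past the threshold. The recruited macrophage markers there summed to 71.4 to 86.2 CPM on FFD against 76.8 to 97.4 CPM on chow, with 1 lower. Of the plasma cell markers, 1 was higher on FFD in WT livers and 1 lower in HKO livers. The sum of 6 cholangiocyte markers was 5.93 to 9.14 CPM in WT FFD livers against 18.8 to 22.4 CPM in WT chow livers. In HKO livers it was 7.34 to 8.26 CPM on FFD against 11.8 to 21.8 CPM on chow, with 1 marker lower in each genotype. What part the makeup of the liver has in the diet values of the members and of the other genes named was not tested.

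Among the D-type cyclins and their kinases, Cdk6 was the member with a change in both genotypes. It had 53.6, 52.5 and 50.4 CPM in HKO FFD livers against 34.9, 34 and 32.9 CPM in HKO chow livers, groups that lie far apart. The log2 fold change was 0.62 ± 0.11 (1.54-fold, adjusted p = 0.0043), and this call held in all 20 alternatives tried. In WT livers Cdk6 had 48.3, 39.7 and 48.5 CPM on FFD against 37.8, 34.4 and 27.2 CPM on chow, a log2 fold change of 0.46 ± 0.11 (1.37-fold, adjusted p = 0.018). The groups are close there, since WT FFD replicate 2 and WT chow replicate 1 differ by little, and the call was lost without WT chow replicate 3 (adjusted p = 0.051), WT FFD replicate 1 (0.066) or WT FFD replicate 3 (0.071). Fitting the WT groups alone also ended it (0.071). Cdk4, the other kinase partner of these cyclins, ranged over only 29.7 to 33.9 CPM in the 12 livers, and its log2 fold change for FFD against chow was 0.00 ± 0.07 in HKO and -0.06 ± 0.07 in WT. Cdk4 shares exon bases with Tspan31 on the other strand. Ccnd1 had a log2 fold change of 0.02 ± 0.24 in HKO and 0.11 ± 0.23 in WT, and Ccnd2 had -0.13 ± 0.18 in HKO and 0.43 ± 0.18 in WT, none of them past the test (adjusted p between 0.14 and 0.97).

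Of the 4 genes of cyclins E and A with Cdk2, 0 passed in any comparison, where up to 14.9% of all tested genes did. Their summed level was 16.6 to 21.4 CPM in HKO FFD livers, 13.7 to 20.4 CPM in WT FFD livers, 15.6 to 22.3 CPM in HKO chow livers and 16 to 22.9 CPM in WT chow livers. By the mean over 12 libraries Cdk2 had 14.4 CPM, Ccne2 2.36 CPM, Ccne1 1.29 CPM and Ccna2 0.556 CPM. Ccna2, the cyclin of replication and early mitosis, had 4 to 15 reads per library.

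Among the E2F factors, E2f8 rose most. It had 36.6, 13.5 and 19.9 CPM in HKO FFD livers against 6.93, 7.58 and 6.11 CPM in HKO chow livers, with the FFD mice spread widely around replicate 1 and all of them above every chow mouse. The log2 fold change was 1.75 ± 0.29 (3.37-fold, adjusted p = 0.0026), it lay between 1.29 and 2.03 when each library was left out in turn, and the call held in all 20 alternatives. In WT livers E2f8 had 20, 18.2 and 26.9 CPM on FFD against 10.6, 11.7 and 10.3 CPM on chow, a log2 fold change of 0.99 ± 0.28 (1.99-fold, adjusted p = 0.033), again with no overlap. That call was lost without any single one of WT chow replicates 1, 2 and 3 and WT FFD replicates 1 and 3 (adjusted p between 0.059 and 0.12), in the robust fit (0.051) and without both libraries with raised acute phase genes (0.092).

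E2f8 cannot be read alone. Of its 5443 exon bases, 610 are shared with Gm2788 on the other strand, and the strand setting of the counting is not given in the sources used here, so reads of the shared stretch cannot be told apart. Gm2788 had 52, 33.5 and 41.9 CPM in HKO FFD livers against 12, 19.9 and 18.3 CPM in HKO chow livers, and 50, 34.3 and 44.6 CPM in WT FFD livers against 27.4, 22.3 and 27.6 CPM in WT chow livers. It too rose on FFD, with a log2 fold change of 1.34 ± 0.2 in HKO (adjusted p = 0.0017) and 0.74 ± 0.2 in WT (adjusted p = 0.027). In all, 9 of the 37 members share exon bases with a gene on the other strand that had at least 10 reads in some library: Ccnd1, Cdk4, Ccne2, Ccna2, Cdk2, Cdkn1a, E2f8, Mcm7 and Cdc20.

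E2f1, an activator of replication genes, had 5.52, 4.7 and 6.05 CPM in WT FFD livers against 2.79, 3.46 and 2.5 CPM in WT chow livers, each FFD mouse above each chow mouse. The log2 fold change was 0.89 ± 0.26 (1.85-fold, adjusted p = 0.035). The call was lost without any single one of WT chow replicates 1, 2 and 3 and WT FFD replicates 1 and 3 (adjusted p between 0.056 and 0.11), and without both libraries with raised acute phase genes (0.11). In HKO livers E2f1 had 3.91, 4.75 and 3.5 CPM on FFD against 2.31, 3.27 and 5.01 CPM on chow, overlapping groups with a log2 fold change of 0.19 ± 0.26 (adjusted p = 0.68). The difference between the genotypes was -0.70 ± 0.36 in log2 and did not pass (adjusted p = 0.62). E2f7 had 0.875, 0.594 and 0.936 CPM in HKO FFD livers against 1, 2.82 and 2.67 CPM in HKO chow livers, a log2 fold change of -1.43 ± 0.48 (adjusted p = 0.067), and 2.3, 1.1 and 1.33 CPM in WT FFD livers against 0.534, 1.51 and 0.642 CPM in WT chow livers, a log2 fold change of 0.79 ± 0.48 (adjusted p = 0.31). The HKO difference passed with no filter on low counts, in DESeq2 and without HKO chow replicate 1. Between 9 and 51 reads per library lay behind the E2f7 values.

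**Figure D3:**
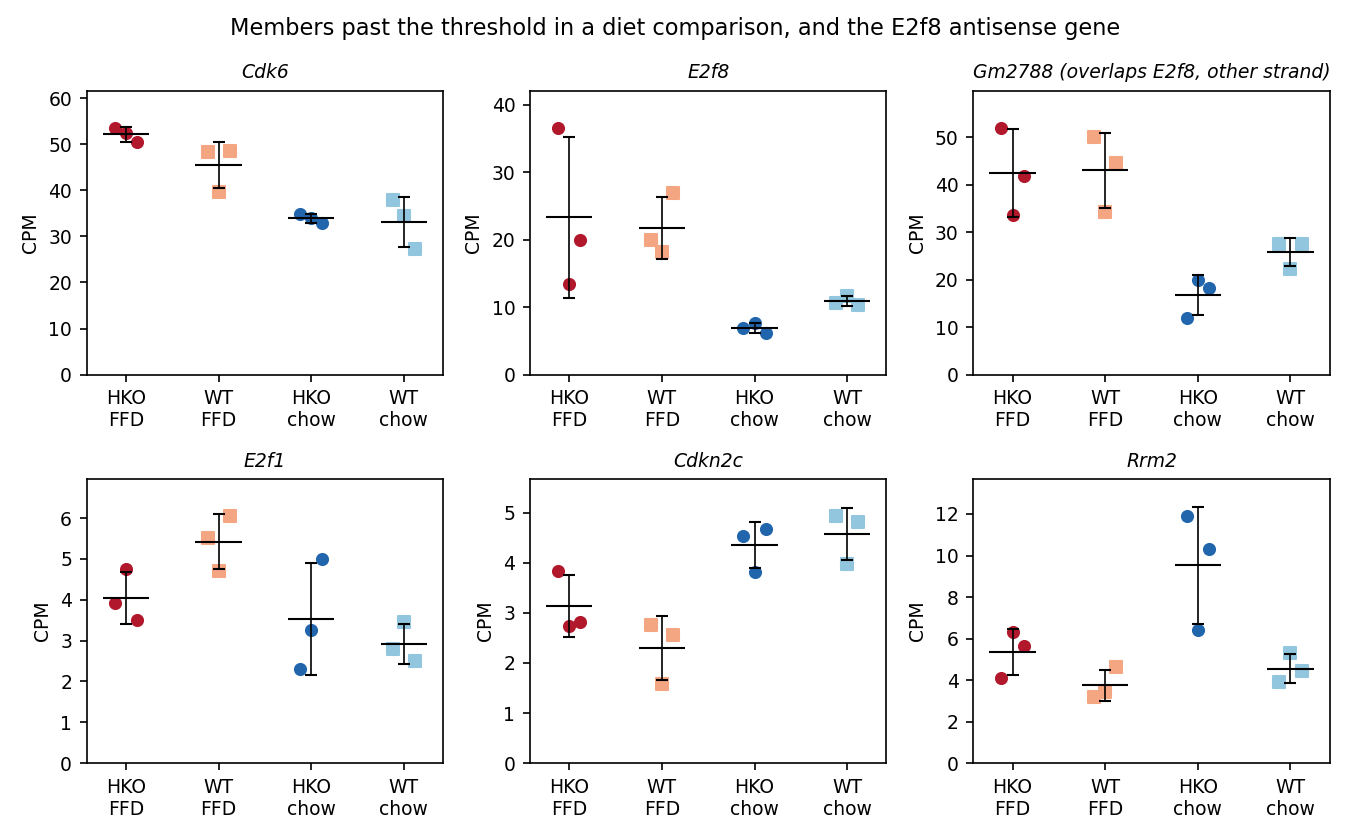
CPM in each liver of the 5 members past the test in a diet comparison and of Gm2788, which overlaps E2f8 on the other strand, with HKO FFD, WT FFD, HKO chow and WT chow from left to right, lines for means and bars for SD (n = 3). Cdk6, E2f8 and Gm2788 lie higher on FFD in both genotypes, while Rrm2 is highest in HKO chow livers, at 6.42 to 11.9 CPM.

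The Cdk inhibitors include Cdkn2c, which blocks Cdk4 and Cdk6, and it fell in WT livers. It had 2.76, 1.57 and 2.56 CPM in WT FFD livers against 4.93, 3.97 and 4.81 CPM in WT chow livers, with the lowest value in WT FFD replicate 2 and no overlap. The log2 fold change was -0.99 ± 0.23 (1.99-fold lower, adjusted p = 0.014). The call held with each library left out in turn, but not without both libraries with raised acute phase genes (log2 fold change -0.74, adjusted p = 0.10). In HKO livers Cdkn2c had 3.84, 2.73 and 2.81 CPM on FFD against 4.54, 3.82 and 4.68 CPM on chow, a log2 fold change of -0.48 ± 0.23 (adjusted p = 0.19), and HKO FFD replicate 1 lies above HKO chow replicate 2. Cdkn1b, an inhibitor of Cdk2, averaged 25.7 ± 1.16 CPM in HKO FFD livers and 30.4 ± 0.998 CPM in HKO chow livers (SD, n = 3 each), with a log2 fold change of -0.24 ± 0.08 (adjusted p = 0.061), which passed only without WT chow replicate 3 among the 20 alternatives. It averaged 26.6 ± 0.711 CPM in WT FFD livers and 30.6 ± 2.28 CPM in WT chow livers, with a log2 fold change of -0.20 ± 0.08 (adjusted p = 0.10).

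Cdkn1a, the inhibitor induced by p53 and by several stress signals, varied 17.3-fold from its lowest to its highest liver, the widest range among members with at least 4 reads in every library. It had 5.72, 27.8 and 9.93 CPM in HKO FFD livers, 2.07, 15.2 and 2.56 CPM in WT FFD livers, 35.3, 13 and 30 CPM in HKO chow livers and 13.1, 11.4 and 35.9 CPM in WT chow livers. Every group holds at least 1 mouse far from its others, and each pair of groups overlaps. For FFD against chow the log2 fold change was -0.84 ± 0.72 in HKO (adjusted p = 0.48) and -1.59 ± 0.75 in WT (adjusted p = 0.18). For HKO against WT it was 1.12 ± 0.76 on FFD (adjusted p = 0.68) and 0.37 ± 0.71 on chow (adjusted p = 0.89). The WT diet value became -3.10 and passed without WT FFD replicate 2 (adjusted p = 0.027), and it also passed with no filter on low counts (0.0023).

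Saa1, an acute phase protein made by hepatocytes, gives a second reading of the same mice. It stood at 950 CPM in WT FFD replicate 2 and 1691 CPM in WT chow replicate 3, against 25.1 to 182 CPM in the other 10 livers. Those livers are the highest of their group for Cdkn1a. HKO FFD replicate 2 and HKO chow replicates 1 and 3 were also high for Cdkn1a, at 27.8 to 35.3 CPM, with Saa1 at 80.3 to 182 CPM. What part the acute phase genes have in the Cdkn1a values was not tested.

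**Figure D4:**
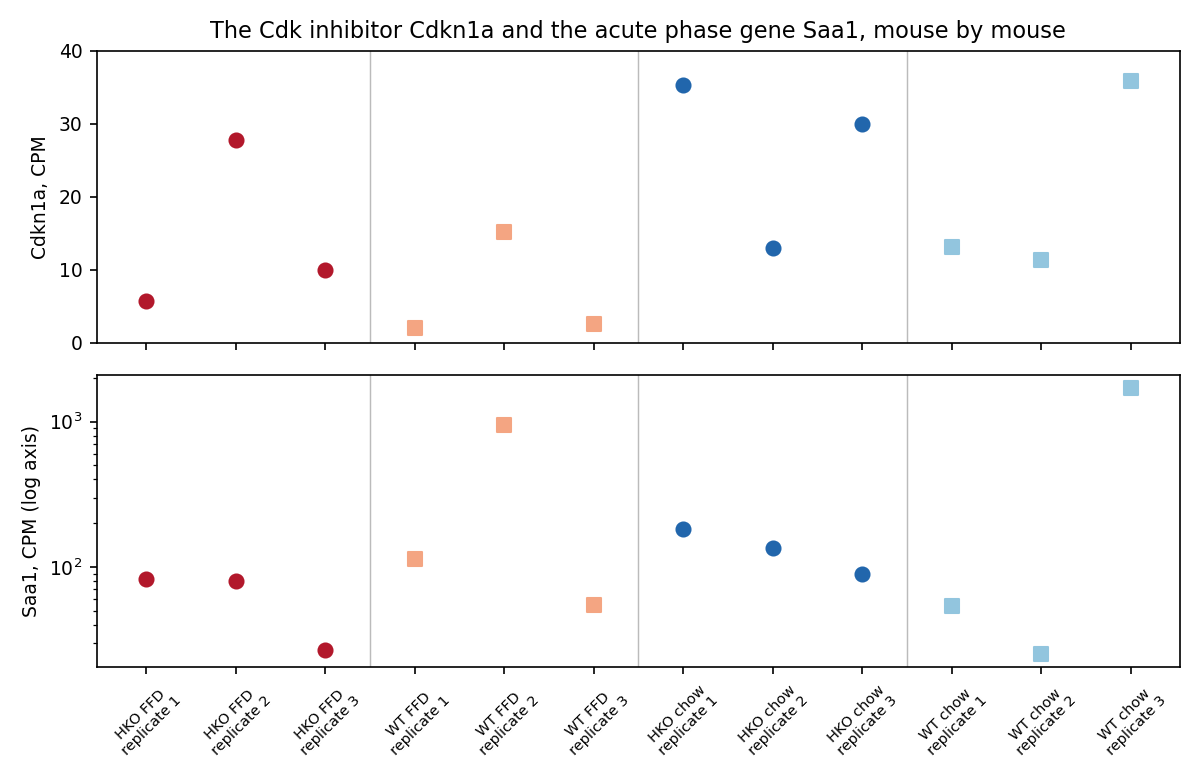
Cdkn1a (top, CPM) and Saa1 (bottom, CPM on a log axis) in each of the 12 livers, 1 point per mouse. Saa1 is raised in WT FFD replicate 2 and WT chow replicate 3, and Cdkn1a is highest of its group in those livers and also high in 3 HKO livers with lower Saa1.

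Among genes of DNA replication and nucleotide supply, 1 of 10 (10%) passed for FFD against chow in HKO livers, against 13.6% of all tested genes. In WT livers 0 of 10 passed, against 14.9% of all tested genes. The 1 gene was Rrm2. In HKO livers it had 4.11, 6.3 and 5.66 CPM on FFD against 11.9, 6.42 and 10.3 CPM on chow. HKO FFD replicate 2 and HKO chow replicate 2 all but meet. The log2 fold change was -0.82 ± 0.24 (1.76-fold lower, adjusted p = 0.042). Among the members' calls this one was lost in the most alternatives, 10 of 20. It was lost without any single one of HKO FFD replicates 1, 2 and 3, HKO chow replicates 1 and 3, WT FFD replicate 2 and WT chow replicate 2 (adjusted p between 0.05 and 0.15), in a fit of the HKO groups alone (0.071) and without both libraries with raised acute phase genes (0.056). In WT livers Rrm2 had 3.17, 3.45 and 4.61 CPM on FFD against 3.92, 5.31 and 4.43 CPM on chow, a log2 fold change of -0.28 ± 0.26 (adjusted p = 0.51). The difference between genotypes was -0.54 ± 0.35 (adjusted p = 0.70).

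The 6 helicase subunits Mcm2 to Mcm7, Pcna and the thymidylate synthase gene Tyms did not pass in either genotype. Pcna averaged 22.6 ± 0.657 CPM in HKO FFD livers and 25 ± 1.92 CPM in HKO chow livers, and 24.3 ± 3.3 CPM in WT FFD livers and 23.6 ± 2.41 CPM in WT chow livers (SD, n = 3 each). Rrm1 averaged 8.09 ± 2.4 CPM in WT FFD livers and 5.32 ± 0.642 CPM in WT chow livers, with a log2 fold change of 0.61 ± 0.21 (adjusted p = 0.072). It passed in 4 of the 20 alternatives: with no filter on low counts, in DESeq2, without WT FFD replicate 2, and without both libraries with raised acute phase genes.

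Of the 12 mitosis genes, 7 could be tested and 0 passed in edgeR in any of the 5 comparisons. Of all tested genes, 13.6% passed for diet in HKO, 14.9% for diet in WT and at most 0.021% in the other comparisons. With 7 genes, 0 is near these shares. At an unadjusted p under 0.05, 0 to 2 of the 7 passed in each comparison, against 9.06% to 29% of all genes. DESeq2 called 0 of the mitosis genes. Their summed level was 8.75 to 12.5 CPM in HKO FFD livers, 7.68 to 11.6 CPM in WT FFD livers, 8.85 to 9.8 CPM in HKO chow livers and 9.32 to 10.1 CPM in WT chow livers. Those ranges overlap throughout. The 5 untested ones had few reads: over 3 libraries Cdc20, the activator of the anaphase ligase, had 25 counts in HKO FFD livers, 15 in WT FFD livers, 8 in HKO chow livers and 8 in WT chow livers, and Aurkb had 7, 25, 3 and 8 in the same groups, with 16 of the 25 in WT FFD replicate 3. Ccnb1 had 0 to 7 and Plk1 0 to 10 reads per library. Ccnb2, a mitotic cyclin with 3 to 31 reads per library, has a pseudogene that was given 8 to 27 reads, so its own count is uncertain.

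The third comparison asked whether the diet effect differs between genotypes, by the HKO minus WT difference on FFD less the same difference on chow. Here 0 of 32 members passed in edgeR, where 0% of all genes did in either direction (0% higher, 0% lower), and DESeq2 called 0. At an unadjusted p under 0.05, 2 members passed, against 9.06% of all genes. The nearest were E2f7 at -2.22 ± 0.68 in log2 (adjusted p = 0.34), Birc5 at -1.41 ± 0.49 (0.40) and Ccnd2 at -0.56 ± 0.26 (0.55). E2f7 passed with no filter on low counts (0.049), a fit in which more of all genes passed too. For E2f7 and Birc5 alike, the HKO FFD livers were the low group against WT FFD livers, and the HKO chow livers were not low against WT chow livers. Ccnd2 had 8.95, 11.9 and 10 CPM in HKO FFD livers against 13.4, 11.6 and 13.6 CPM in WT FFD livers, and 9.47, 14.5 and 9.69 CPM in HKO chow livers against 7.72, 10.3 and 10.7 CPM in WT chow livers, with overlap on both diets.

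Other genes, not all of them genes of the cycle, were counted in 6 further lists. For HKO against WT, on FFD and on chow, and for the difference of differences, 0 genes of these lists passed in edgeR. With 15 to 37 tested genes each, the lists had at an unadjusted p under 0.05 1 to 4 genes on FFD, 2 to 7 on chow and 0 to 6 for the difference of differences, where 9.34%, 11.8% and 9.06% of all genes passed. DESeq2 called 1 p53 pathway gene on FFD and 1 of the other cyclins, kinases and Cdk regulators on chow, and up to 3 genes of a list passed with no filter on low counts. Both of these fits also called many more of all genes than the main fit, with the numbers given in the closing section. For FFD against chow, the list of replication origins and forks had 1 of 37 tested genes higher and 0 lower in HKO, and 6 higher and 0 lower in WT. That is 2.7% of the list in HKO against 13.6% of all genes, and 16.2% in WT against 14.9% of all genes. In WT livers Gins1, a subunit of the helicase activator, averaged 3.98 ± 0.552 CPM on FFD and 1.64 ± 0.228 CPM on chow (log2 fold change 1.27 ± 0.22, adjusted p = 0.0032), and this call held in all 20 alternatives. The origin factor Mcm10 rose by 0.89 ± 0.2 (adjusted p = 0.012) and Gins4 by 0.42 ± 0.1 (0.015). Mcm10 averaged 118 ± 29.6 CPM on FFD and 63.7 ± 11.7 CPM on chow, where the highest member mean over all libraries was 41.2 CPM, for Cdk6. Mcm10 was lost without WT chow replicate 2 (0.053), and Gins4 in 5 of 20 alternatives (0.052 to 0.066), among them without WT chow replicate 2 or 3 or WT FFD replicate 3. In HKO livers Gins1 had a log2 fold change of 0.70 ± 0.23 (adjusted p = 0.060) and Mcm10 of 0.57 ± 0.2 (0.083). The gene past the test there, Rfc1 of the clamp loader, had 0.34 ± 0.1 (0.048) and was lost in 11 of 20 alternatives.

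Of mitotic machinery beyond the members, 1 of 29 tested genes was higher in HKO (Pttg1, 0.36 ± 0.1, adjusted p = 0.032, lost in 6 of 20 alternatives), 0 lower, and 0 in WT. That is 3.45% of the list in HKO and 0% in WT, against 13.6% and 14.9% of all genes. Among brakes and quiescence genes, 0 of 20 passed in HKO, and in WT 1 was higher and 1 lower, 10% of the list. The lower one, the antiproliferative gene Tob2, averaged 63.3 ± 3.3 CPM on FFD and 102 ± 17.9 CPM on chow (-0.69 ± 0.13, adjusted p = 0.0052) and held in all 20 alternatives. The higher one, Btg2, was lost in 12 of 20, among them without WT FFD replicate 2, where its log2 fold change of 1.20 fell to 0.47 (adjusted p = 0.13).

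Of 22 tested p53 pathway genes, 2 were higher and 1 lower in HKO, and 3 were higher and 1 lower in WT, which is 13.6% of the list in HKO and 18.2% in WT, against 13.6% and 14.9% of all genes. The death receptor gene Fas rose in both, by 0.59 ± 0.13 in HKO (adjusted p = 0.011) and 0.51 ± 0.13 in WT (0.019). The HKO call was lost without HKO chow replicate 3 (0.053), and the WT call without WT FFD replicate 2 or WT chow replicate 1 or 2 (0.059 to 0.079). The others were less firm. They were Sesn1 (-0.58 ± 0.14) and Perp (0.34 ± 0.1) in HKO and Plk3 (0.82 ± 0.22), Mdm2 (-0.48 ± 0.13) and Gadd45a (1.62 ± 0.45) in WT, lost in 4, 9, 5, 6 and 7 of 20 alternatives, in that order.

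Of 31 other cyclins, kinases and Cdk regulators, 3 were higher and 6 lower in HKO, and 2 were higher and 7 lower in WT, which is 29% of the list in each, against 13.6% of all genes in HKO and 14.9% in WT. These 9 genes became 3 to 9 in both genotypes when 1 library was left out, with 3 in HKO without HKO FFD replicate 1 and 3 in WT without WT FFD replicate 3. Wee1, the kinase that restrains Cdk1, averaged 25.9 ± 6.37 CPM in WT FFD livers and 8.25 ± 3.05 CPM in WT chow livers (1.64 ± 0.23, adjusted p = 0.0012), and 32.4 ± 1.71 CPM in HKO FFD livers and 18.7 ± 2.37 CPM in HKO chow livers (0.80 ± 0.22, 0.033). The D-type cyclin Ccnd3 fell by 0.39 on the log2 scale in HKO (adjusted p = 0.012) and by 0.40 in WT (0.0095), and it overlaps Bysl on the other strand. Cks1b, a subunit that docks Cdks to substrates, fell by 1.10 in HKO (0.011) and had -0.27 ± 0.23 in WT (0.49). The calls of Wee1 in WT, of Ccnd3 in both and of Cks1b in HKO held in all 20 alternatives. Also named by the rule were Ccnl2 (-0.35 ± 0.09) and Cdk18 (0.33 ± 0.08) in HKO, and Cdk9 (-0.39 ± 0.08) and Cdk18 (0.37 ± 0.08) in WT, lost in 3, 4, 1 and 2 alternatives, in that order. The list is not confined to the cell cycle: Cdk9 and Ccnl2, called lower in both genotypes, are known for transcription and splicing. Its share of called genes is thus not one of cycle genes alone.

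Of 15 tested hepatocyte growth signals and YAP pathway genes, 2 were higher and 1 lower in each genotype, which is 20% of the list, against 13.6% of all genes in HKO and 14.9% in WT. The YAP relative Wwtr1 rose by 0.77 ± 0.15 in HKO (adjusted p = 0.0051, held in all 20 alternatives) and by 0.58 ± 0.15 in WT (0.020, lost in 5). Their DNA-binding partner Tead1 fell by 0.87 in WT (0.010, held in all 20) and had -0.47 ± 0.19 in HKO (0.13). The growth factor genes Tgfa (-0.48 ± 0.12 in HKO, lost in 4) and Btc (1.44 ± 0.42 in HKO and 1.26 ± 0.39 in WT, lost in 9 and 13) also passed.

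**Figure D5:**
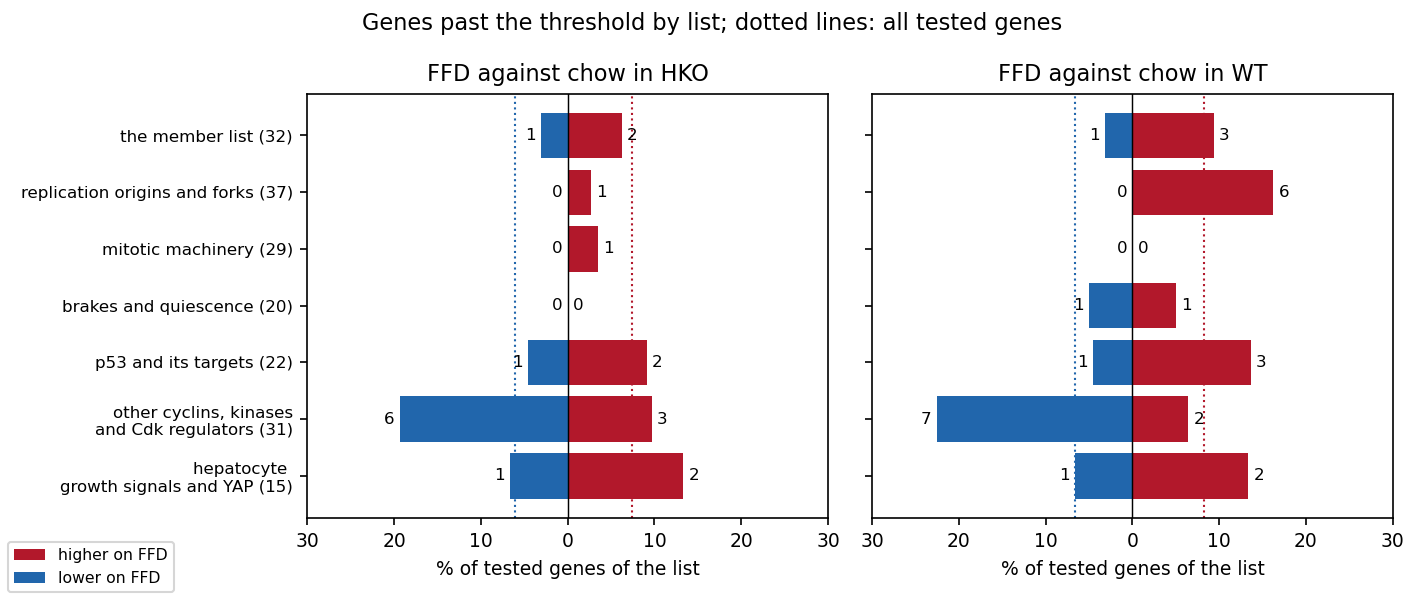
Share of tested genes of each list that passed an adjusted p of 0.05 for FFD against chow, in HKO (left) and WT (right), with bars to the right for genes higher on FFD, bars to the left for genes lower on FFD, gene counts at the bar ends and dotted lines for all tested genes. The member list, at 2 higher and 1 lower in HKO and 3 higher and 1 lower in WT, lies near the dotted lines, while 6 and 7 other cyclins, kinases and Cdk regulators were lower. That last list is not confined to cycle genes.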

How the data were processed

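RNA from 12 whole livers was sequenced. The authors deposited raw read counts per gene with 1 column per mouse and a gene length; per the submitters' processing notes, STAR (version not given in the sources used here) and featureCounts 1.5.0-p3 were used with mm10, and neither the strand setting nor the annotation release is given in the sources used here. Differences were fitted on these counts with edgeR 4.0.16 (R 4.3.3), using filterByExpr, TMM scaling, a quasi-likelihood fit of 4 group means over 12 libraries, two-sided p-values adjusted by Benjamini-Hochberg over 14277 genes, threshold 0.05. CPM use TMM-scaled library sizes, and an SE is the log2 fold change divided by the square root of its F. TPM were computed here from the counts and the deposited lengths. List means of log2 CPM used a prior count of 2. DESeq2 1.42.0 was an alternative.

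Groups follow the genotype and diet in the labels, where each replicate is a separate mouse. Libraries of a group differed by a chi-square of 9.62 to 42.1 per degree of freedom, so each was kept. Sample columns left unused numbered 0. Same-numbered mice deviated together in 1 of 18 pairs (correlations -0.11 to 0.12, taken as paired above 0.1), so replicate numbers were not used as pairs. Promoters come from RefSeq GRCm38.p6 and strand overlaps from GENCODE M21, in which all 37 members have the coordinates of the deposited table.

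The members and lists were chosen with earlier results of these data known. Named with values were all members past the threshold, the 3 with the smallest p in each comparison, Mki67 and Cdkn1a, and up to 4 genes per further list and comparison past the threshold; 1 gene that this rule names is not reported here. A count of 0 was given a floor of 3 counts, and floors cover counting error only. Total counts of 12842187 to 24332663 limit precision for members with few reads.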

Additional observations from a re-analysis of the deposited data

How the results depend on the processing

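Of 515 refits of the members named, 474 kept direction and side of the threshold, 29 lost and 6 gained a call, and 6 turned sign. Of 580 refits of the further genes named, 468 kept both and 112 lost the call. The sign turned for Mki67 (HKO against WT on FFD to -0.05 without both libraries with raised acute phase genes; -0.18 to 0.55 with 1 library left out; FFD against chow in WT -0.08 to 0.50) and for the Cdkn1a interaction (-0.11 to 2.26; -0.11 without HKO FFD replicate 2). The cause was not tested. The last setting, without both of those libraries, was chosen after seeing the data.

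Members called for HKO against WT on chow numbered 1 with no filter, 1 in DESeq2 and 0 to 1 with a library left out, and for the interaction 1 with no filter. In the WT diet comparison they were 1 to 6 with a library left out and 2 without both libraries. All genes called for HKO against WT on chow were 395 with no filter, 130 in DESeq2, 1 fitting only the groups compared, 14 without both libraries and 0 to 313 with a library left out (313 without HKO chow replicate 2). On FFD they were 306, 139, 2, 3 and 0 to 30 in that order, and 2 in the robust fit. They were 967 to 2125 for diet in HKO, 1113 to 2334 for diet in WT with a library left out and 1187 without both, and for the interaction 238 with no filter, 95 in DESeq2 and 0 to 81. No scaling moved the median of all genes by more than 0.017 in log2.

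With the replicate block, all genes called were 0 on chow and 2 on FFD for HKO against WT and 1 for the interaction, Rrm2 in HKO (adjusted p = 0.060) and E2f1 in WT (0.051) lost their diet calls, and no other member call changed. Depth limits the mitosis genes, where 5 of 12 were too low to test and Bub1 had 14 reads in all.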
